A study of Mus musculus with 73 samples.

Results

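The TAM receptors are the receptor tyrosine kinases TYRO3, AXL and MERTK, and their ligands are GAS6 and protein S, the product of Pros1. Both ligands carry a vitamin K-dependent domain that binds phosphatidylserine, a lipid exposed on dying cells and on debris, and a second domain that binds the receptor. They so bridge the target to the phagocyte, and receptor signalling drives engulfment and dampens innate immune responses. In brain phagocytes, MERTK is known for uptake under resting conditions and AXL as a receptor raised by inflammatory stimuli. The 5 genes Axl, Mertk, Tyro3, Gas6 and Pros1 were taken by symbol from tables of 39179 genes each, with 1 row per gene and table.

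The measurements were RPKM values, read numbers scaled by gene length and by library size, from RNA sequencing of microglia, the resident macrophages of the brain. Cells were sorted by flow cytometry for the surface proteins CD11b and CD45 from brains of C57BL/6 mice. Mice were wild type (WT), 5xFAD, 5xFAD;CD33-/-, 5xFAD;TREM2-/- or 5xFAD;CD33-/-;TREM2-/-. The 5xFAD strain is a model of amyloid deposition that carries mutant human transgenes driven by the neuronal Thy1 promoter. CD33 is an inhibitory sialic acid receptor and TREM2 an activating lipid receptor of myeloid cells, and all knockout mice also carried 5xFAD. Mice aged 4 months were in 1 table, with 7 libraries of WT, 9 of 5xFAD, 4 each of 5xFAD;TREM2-/- and 5xFAD;CD33-/-, and 2 of the double knockout. Mice aged 8 months were in a pair of tables. The CD33 table had 12 libraries of 5xFAD;CD33-/- and 11 of 5xFAD, and the TREM2 table had 8 libraries of 5xFAD;TREM2-/-, 10 of 5xFAD and 6 of WT. The tables were normalised separately, so no test crossed them, and levels from different tables are given only side by side. Comparisons that share the 5xFAD or WT libraries of a table are not independent of each other.

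Library depth and content were examined before the genes. Recovered read numbers ran from 21190000 to 79650000 per library with a median of 35480000. Of the 8 microglial markers listed, none had a group mean under 1 RPKM in any group, and their summed RPKM lay between 7052.6 and 16615.2. Markers of T, B and NK cells summed to at most 2.21 RPKM, and those of neurons to at most 10.1 RPKM. Endothelial markers summed to between 92.2 and 1424.4 RPKM and were not at 0 in any group. Markers of monocytes and neutrophils reached sums of 410.1 RPKM at 4 months, 1786.9 in the CD33 table and 1383.1 in the TREM2 table. Those of mural cells summed to at most 429.6 RPKM and those of brain border macrophages to at most 73.5 RPKM. The part of these cells in the results below was not tested. Cd33 was at most 0.605 RPKM in all 4 libraries labelled 5xFAD;CD33-/- at 4 months and in 11 of the 12 at 8 months, and at 19.1 RPKM in the other, labelled replicate 7, against a mean of 123.5 RPKM in 5xFAD. In the double knockout it was at 14 RPKM in replicate 1 and had 0 reads in replicate 2, where 3 reads would be 0.0242 RPKM. Trem2 fell from 740.3 to 32.3 RPKM at 4 months and from 808.0 to 18.1 RPKM at 8 months in 5xFAD;TREM2-/- against 5xFAD. The Axl and Mertk results that rest on a library with unexpected Cd33 are given also without it. Nothing in the labels states that each library came from a separate animal, and some titles carry a pair of animal numbers, so the p-values measure the spread between libraries.

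Axl was the member that changed most, in the comparisons of 5xFAD with WT and of TREM2 knockouts with 5xFAD. Axl (ENSMUSG00000002602) lies on chromosome 7 from 25757273 to 25788705 on the minus strand of GRCm38 and is protein coding, with no overlapping gene annotated. It lies 17.7 Mb from Cd33 on the same chromosome. Mertk (ENSMUSG00000014361) lies on chromosome 2 from 128698956 to 128802894 on the plus strand and overlaps the antisense gene Gm14011 and the small nucleolar RNA Gm23172. As Axl changed most and Mertk was the most abundant receptor in WT, the 250 bases before the RefSeq gene start of each are shown, 5′ to 3′ on the strand of the gene, from chr7:25788734-25788983 for Axl and chr2:128698665-128698914 for Mertk (RefSeq, GRCm38.p6). Capitals mark matches on either strand to the GC box GGGCGG, which Sp1 family factors bind, and to GAGGAA, a core of sites bound by the myeloid factor PU.1.
Axl: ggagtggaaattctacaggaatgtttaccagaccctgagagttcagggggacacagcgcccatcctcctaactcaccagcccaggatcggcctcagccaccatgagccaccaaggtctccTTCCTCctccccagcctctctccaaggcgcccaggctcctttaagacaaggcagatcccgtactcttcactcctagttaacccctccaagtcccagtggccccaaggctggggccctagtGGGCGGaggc
Mertk: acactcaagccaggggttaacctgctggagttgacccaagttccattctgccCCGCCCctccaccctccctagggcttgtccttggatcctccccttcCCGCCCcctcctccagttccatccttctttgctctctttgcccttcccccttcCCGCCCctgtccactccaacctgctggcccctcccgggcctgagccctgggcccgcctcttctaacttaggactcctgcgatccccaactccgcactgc
The Axl window held 1 GC box, starting 10 bases before the gene start, and 1 GAGGAA match, starting 130 bases before it. The Mertk window held 3 GC boxes, starting 198, 152 and 99 bases before the gene start, and no GAGGAA. Tyro3, Gas6 and Pros1 had 3, 4 and 5 GC boxes in the same window, and no GAGGAA. Among 32851 RefSeq mouse promoters of this length, 32.7% held a GC box and 23.3% held GAGGAA, so neither is rare. The AP-1 motif TGANTCA, in 6.75% of promoters, and the E-box CACGTG, in 6.02%, were found on neither strand in any of the 5 windows. No match of a motif overlapped that of another motif. These matches describe the sequence and were not tested for binding.

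In WT microglia at 4 months, Axl was at 3.46, 4.66, 3.83, 3.33, 3.81, 4.29 and 3 RPKM in replicates 1, 2, 8, 9, 10, 12 and 13. In the 9 5xFAD libraries the lowest value was 24.2, the median 64.1 and the highest 94.7 RPKM. The groups did not overlap, and the 5xFAD libraries spread widely. The means were 58.7 ± 26.4 RPKM (SD, n = 9) and 3.77 ± 0.57 RPKM (SD, n = 7). The difference was 3.66 ± 0.239 on the log2 scale (limma on log2 of RPKM + 0.5, ± SE, adjusted p = 1.9e-10), 15.6-fold between means, with 9 of 9 5xFAD libraries above the WT mean. It was the 4th largest increase among 13024 genes tested. In that comparison 16.7% of genes tested were called, that is, had an adjusted p under 0.05, and 2 of the 5 members were called, Axl higher and Mertk lower.

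At 8 months the WT libraries held 5.61, 6.87, 6.42, 5.5, 6.92 and 5.61 RPKM of Axl in replicates 1, 2, 6, 7, 8 and 9 (lowest 5.5, highest 6.92). The 10 5xFAD libraries of the same table ran from 98.8 to 151.9 RPKM, with means of 122.6 ± 16 (SD, n = 10) against 6.16 ± 0.662 (SD, n = 6). Every 5xFAD library exceeded every WT library. The difference was 4.20 ± 0.118 on the log2 scale (limma, adjusted p = 8.48e-19), 19.9-fold between means. Here 58.8% of 12622 genes tested were called, and all 5 members were among them, with Axl and Gas6 higher and Mertk, Tyro3 and Pros1 lower. With 58.8% of genes called, that count says little of the members as a group; the sizes of the differences set Axl apart from the other members.

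**Figure D1:**
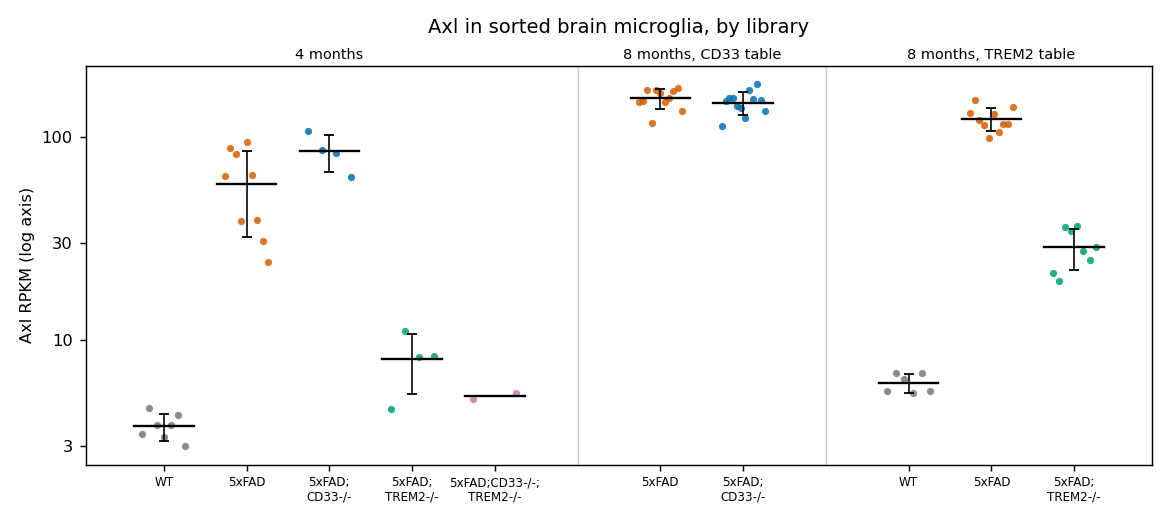
Axl RPKM in each library (points, log axis) by genotype and table, with group means (bars) and SD (whiskers, groups of over 2 libraries). WT libraries lie between 3 and 6.92 RPKM, 5xFAD libraries between 24.2 and 174.7, and 5xFAD;TREM2-/- libraries at 4.61 to 11.1 at 4 months, overlapping WT, and at 19.6 to 36.4 at 8 months, between WT and 5xFAD.

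Axl was lower at both ages in mice without TREM2. At 4 months the 5xFAD;TREM2-/- libraries held 4.61, 11.1, 8.23 and 8.38 RPKM (replicates 1, 3, 7 and 9), all below the lowest 5xFAD library at 24.2 RPKM. The mean was 8.08 ± 2.66 RPKM (SD, n = 4), and the log2 difference from 5xFAD was -2.70 ± 0.285 (limma, adjusted p = 1.6e-06), 7.26-fold lower between means. Only Trem2 itself fell further among the 13024 genes tested. Of the members, Axl alone was called, in a comparison where 2.39% of genes were called.

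At 8 months the 8 5xFAD;TREM2-/- libraries held from 19.6 to 36.4 RPKM of Axl, with a median of 28.3 RPKM, below all 10 5xFAD libraries. The mean was 28.7 ± 6.55 RPKM (SD, n = 8), and the log2 difference from 5xFAD was -2.10 ± 0.109 (limma, adjusted p = 6.31e-13), 4.28-fold lower. Again Axl was the 1 member called, where 17.3% of genes tested were called. The title number of replicate 5 recurs in the title of replicate 4, which carries a pair of numbers. Without replicate 5 the difference was -2.14 ± 0.111.

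Axl in 5xFAD;TREM2-/- was next set against WT, groups that differ by both 5xFAD and TREM2. As no TREM2 knockout without 5xFAD was measured, the parts of each cannot be told apart. At 8 months Axl was above WT in 8 of 8 libraries, by 2.10 ± 0.124 on the log2 scale (limma, adjusted p = 1.33e-11). This was 4.65-fold between means, in a comparison where 42.3% of genes were called. At 4 months the 5xFAD;TREM2-/- mean was 2.14-fold the WT mean, with 4 of 4 libraries above it, but the groups overlapped and the log2 difference of 0.96 ± 0.297 was not called (limma, adjusted p = 0.311), where 0.399% of genes were. With only these libraries in the fit it was called, with an adjusted p of 0.0278. The ages were not tested against each other, as they are in separate tables.

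Loss of CD33 gave no called change of Axl. At 4 months the 5xFAD;CD33-/- libraries held 106.7, 85.9, 83.2 and 63.9 RPKM (replicates 1 to 4), inside or just above the range of 5xFAD, with a mean of 84.9 ± 17.5 RPKM (SD, n = 4). The log2 difference from 5xFAD was 0.65 ± 0.285 with a 95% confidence interval from 0.06 to 1.24, and was not called (limma, adjusted p = 0.142), although 4 of 4 libraries exceeded the 5xFAD mean. Over the alternatives with no library left out, the difference lay between 0.34 and 0.98. At 8 months the 11 5xFAD libraries of the CD33 table ran from 117.2 to 174.7 RPKM and the 12 5xFAD;CD33-/- libraries from 112.9 to 182.8 RPKM. These groups overlapped over nearly their whole ranges. The means were 154.8 ± 17.7 (SD, n = 11) and 147.8 ± 18.9 RPKM (SD, n = 12), and the log2 difference was -0.07 with an interval from -0.23 to 0.09 (limma, adjusted p = 0.701). Without the library that held Cd33 it was -0.05 ± 0.0777. Against WT at 4 months, 5xFAD;CD33-/- microglia held 22.5-fold more Axl (log2 difference 4.31 ± 0.297, limma, adjusted p = 3.81e-10), where 42.4% of genes were called.

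In the double knockout Axl was low. Its libraries held 5.15 and 5.47 RPKM (replicates 1 and 2), below every 5xFAD library and above every WT library. The log2 difference from 5xFAD was -3.20 ± 0.371 (limma, adjusted p = 5.53e-06), where 3.75% of genes were called, and from 5xFAD;CD33-/- it was -3.86 ± 0.411 (adjusted p = 2.64e-06), where 4.91% were called. Without replicate 1, which held Cd33, these were -3.16 ± 0.511 (adjusted p = 0.0012) and -3.82 ± 0.542 (adjusted p = 0.000421), the lone library being assumed to vary like the other groups. From 5xFAD;TREM2-/- the double knockout differed by -0.50 with an interval from -1.35 to 0.35 (adjusted p = 0.909; -0.46 without replicate 1), where 0.0691% of genes were called. From WT it differed by 0.45 with an interval from -0.33 to 1.24 (adjusted p = 0.552; 0.49 without replicate 1), where 0.476% were called. The single knockouts differed from each other by 3.35 ± 0.336, with more Axl in 5xFAD;CD33-/- (adjusted p = 5.34e-07), where 15.3% of genes were called.

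The fall of Axl with TREM2 loss was tested for a dependence on CD33. The difference of the differences was -1.16 ± 0.50, a larger fall where CD33 was also absent. It had an unadjusted p of 0.0299 and was not called over all genes (limma, adjusted p = 0.91). Without double knockout replicate 1 it was -1.12 ± 0.615. In that test 0 of 13024 genes were called (0%), and 664 had an unadjusted p under 0.05. At 4 months the order of Axl means was therefore WT, double knockout, 5xFAD;TREM2-/-, 5xFAD and 5xFAD;CD33-/-. Among neighbours in that order, the difference between 5xFAD;TREM2-/- and 5xFAD was called, and those of the other neighbours were not, although the WT and double knockout libraries did not overlap.

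Markers of other cells moved with some of these comparisons. Endothelial markers were called higher in 3 of 8 cases in 5xFAD against WT at 4 months (median log2 difference 0.77) and in 8 of 8 at 8 months (1.35). Microglial markers were called lower in 6 of 8 and 7 of 8 cases (medians -0.28 and -0.80). Of all genes tested in these comparisons, 16.7% and 58.8% were called. Summed endothelial markers lay between 92.2 and 202.3 RPKM in WT and between 119.8 and 818.1 in 5xFAD at 4 months, and between 173.9 and 464.3 and between 365.7 and 1177.4 at 8 months. In 5xFAD;TREM2-/- against 5xFAD, 0 of 8 endothelial markers were called at either age (medians 0.05 and 0.33), where 2.39% and 17.3% of all genes were called. In bulk RNA of sorted cells, fewer cells of a type and less RNA per cell cannot be told apart. With the mean log2 level of the endothelial markers as a covariate, the Axl differences between 5xFAD and WT were 3.45 ± 0.252 at 4 months and 4.19 ± 0.174 at 8 months. Those between 5xFAD;TREM2-/- and 5xFAD were -2.71 ± 0.266 and -2.10 ± 0.114. With the prefix shared by library titles as a term, they were 3.72 ± 0.271 and 4.28 ± 0.102, and -2.70 ± 0.319 and -2.11 ± 0.0817.

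**Figure D2:**
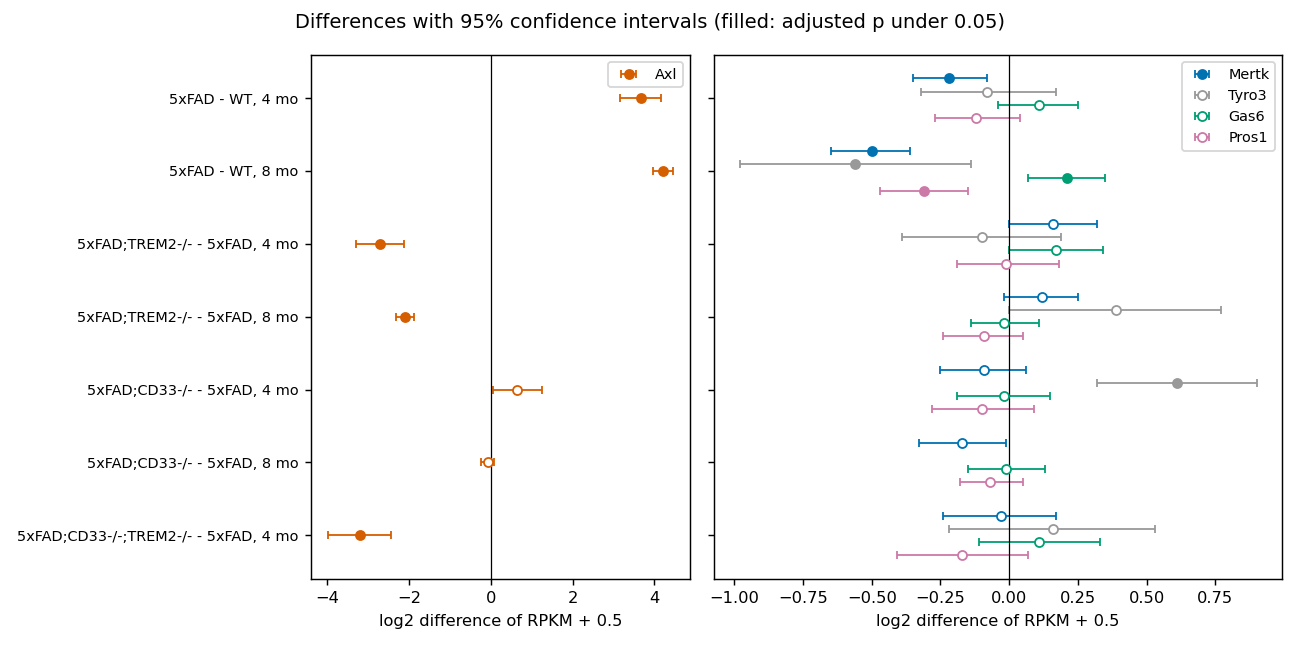
Log2 differences (points) with 95% confidence intervals for the members in 7 comparisons, Axl on the left and the other members on the right, on axes of different range. Filled points had an adjusted p under 0.05. Axl differed by 3.66 and 4.20 between 5xFAD and WT, and no other member differed by more than 0.61 in size in these comparisons.

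Mertk was the most abundant receptor transcript in WT microglia and was lower in 5xFAD. At 4 months it lay between 180.4 and 232.6 RPKM in WT (median 208.1) and between 142.2 and 201.3 RPKM in 5xFAD (median 176.8), with overlapping groups. The means were 205.0 ± 17.3 (SD, n = 7) and 176.7 ± 17.8 (SD, n = 9), a log2 difference of -0.22 ± 0.0648 (limma, adjusted p = 0.022). At 8 months Mertk was at 186.0, 184.9, 197.9, 192.5, 189.2 and 196.0 RPKM in WT (replicates 1, 2, 6, 7, 8 and 9) and between 105.5 and 161.3 in 5xFAD, with no overlap. The log2 difference was -0.50 ± 0.0706 (limma, adjusted p = 2.3e-06), a mean of 135.8 against 191.1 RPKM.

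TREM2 loss gave no called change of Mertk from 5xFAD at either age, by 0.16 ± 0.0772 at 4 months (adjusted p = 0.401) and 0.12 ± 0.0648 at 8 months (adjusted p = 0.227). At 8 months the 5xFAD;TREM2-/- libraries, at 132.6 to 161.5 RPKM, all lay below the WT libraries, with a log2 difference of -0.38 ± 0.0738 (limma, adjusted p = 0.000221). CD33 loss gave log2 differences of -0.09 ± 0.0772 at 4 months (adjusted p = 0.442) and -0.17 ± 0.0785 at 8 months (adjusted p = 0.347), neither called. The latter was -0.15 ± 0.0790 without the library that held Cd33. Against WT, Mertk was lower in 5xFAD;CD33-/- at 4 months, at 152.1 to 185.3 RPKM, by a log2 difference of -0.31 ± 0.0805 (limma, adjusted p = 0.00365). The double knockout libraries held 182.5 and 162.0 RPKM.

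Microglial markers were also lower in 5xFAD than in WT, by median log2 differences of -0.28 at 4 months and -0.80 at 8 months. Their part in the Mertk results was not tested. The endothelial markers moved with each called Mertk difference. With the endothelial markers as a covariate, the differences from WT were -0.12 ± 0.0588 for 5xFAD at 4 months (adjusted p = 0.256), -0.07 ± 0.0916 for 5xFAD;CD33-/- (adjusted p = 0.757) and -0.04 ± 0.0769 for 5xFAD;TREM2-/- at 8 months (adjusted p = 0.796), and were no longer called. Summed endothelial markers were 280.5 to 722.6 RPKM in 5xFAD;CD33-/- and 92.2 to 202.3 RPKM in WT at 4 months. At 8 months they were 545.1 to 1424.4 RPKM in 5xFAD;TREM2-/- and 173.9 to 464.3 RPKM in WT. As these knockout groups did not overlap WT, the covariate and genotype cannot be told apart there. The Mertk difference between 5xFAD and WT at 8 months stayed called, at -0.23 ± 0.0666 (adjusted p = 0.0101). The difference of 0.19 ± 0.0438 between 5xFAD;TREM2-/- and 5xFAD at 8 months became called (adjusted p = 0.00325). The 4-month difference between 5xFAD and WT also rested on WT replicate 10, without which it was -0.19 ± 0.0657 (adjusted p = 0.0637).

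Tyro3 (ENSMUSG00000027298, chromosome 2, 119797733 to 119818104, plus strand) was the least abundant member in every group. It lay between 0.0613 RPKM, which was 10 reads, and 2.79 RPKM, which was 667 reads. In the CD33 table it did not reach 1 RPKM in any library and was not tested. At 4 months the 5xFAD;CD33-/- libraries held 0.733, 1.38, 1.19 and 0.585 RPKM, against 0.331 to 0.631 RPKM in 5xFAD, with the lowest knockout library inside the 5xFAD range. Replicates 2 and 3 were the only libraries of the table to reach 1 RPKM, so Tyro3 passed the filter through this group alone, and the call made after the filter is no support. With either of them left out it was not tested. With no filter on genes, the log2 difference from 5xFAD was 0.61 ± 0.125 (limma, adjusted p = 0.0273), from WT 0.53 ± 0.131 (adjusted p = 0.00477) and from 5xFAD;TREM2-/- 0.71 ± 0.147 (adjusted p = 0.00517). After the filter, Tyro3 was the 1 member called against 5xFAD (adjusted p = 0.0277), where 4.90% of genes were called.

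Oligodendrocyte markers rose in the same libraries. In 5xFAD;CD33-/- against 5xFAD, where 4.90% of all genes were called, 4 of 6 were called higher, with a median log2 difference of 0.70. Those with the smallest p were Mobp at 1.13 ± 0.207 and Mag at 0.34 ± 0.0848. Their summed level ran from 66.2 to 134.8 RPKM against 50.3 to 91.8 RPKM. Endothelial markers had a median of 1.00, with 1 of 8 called, and their part in the Tyro3 result was not tested beyond the covariate, with which the 3 Tyro3 differences were 0.39, 0.14 and 0.50 and not called. Summed endothelial markers of 5xFAD;CD33-/- did not overlap those of WT, so for that difference the covariate and genotype cannot be told apart. Without 5xFAD replicate 7 the Tyro3 difference from 5xFAD had an adjusted p of 0.0511.

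At 8 months Tyro3 was at 1.23, 0.488, 1.79, 2.13, 2.79 and 1.74 RPKM in WT and between 0.588 and 1.8 RPKM in 5xFAD. The groups overlapped, and the log2 difference was -0.56 ± 0.204 (limma, adjusted p = 0.0223). Of the oligodendrocyte markers, 4 of 6 were called lower there, where 58.8% of all genes were called. Their median was -0.83, and their sums ran from 77.8 to 313.6 RPKM in WT and from 77.1 to 161.1 in 5xFAD. The part of these markers in the Tyro3 result was not tested. Without WT replicate 7 or WT replicate 8 the difference was -0.49 or -0.42 and was not called (adjusted p = 0.0614 and 0.0832).

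The make-up of the receptor transcripts therefore moved with genotype. RPKM divides by 1 length per gene, 6388 bases for Axl and 4317 bases for Mertk, and levels are set side by side on that scale. The lengths of the transcripts present, and reads of the genes that overlap Mertk, were not examined. Of the summed Axl, Mertk and Tyro3 RPKM, Axl made up 1.8% ± 0.251 (SD, n = 7) in WT and 24.3% ± 9.19 (SD, n = 9) in 5xFAD at 4 months. It made up 33.7% ± 5.66 in 5xFAD;CD33-/- (SD, n = 4), 3.94% ± 1.32 in 5xFAD;TREM2-/- (SD, n = 4) and 2.73% and 3.26% in the double knockout libraries. At 8 months it was 3.1% ± 0.359 in WT (SD, n = 6), 47.3% ± 4.52 in 5xFAD (SD, n = 10) and 16.1% ± 3.17 in 5xFAD;TREM2-/- (SD, n = 8) in the TREM2 table. In the CD33 table it was 53.3% ± 3.58 in 5xFAD (SD, n = 11) and 54.9% ± 4.73 in 5xFAD;CD33-/- (SD, n = 12). In 5xFAD at 8 months the Axl level was thus close to that of Mertk, with an Axl to Mertk ratio of 0.916 ± 0.163 in the TREM2 table and 1.15 ± 0.165 in the CD33 table, against 0.0323 ± 0.00385 in WT. These shares follow from the levels above and carry no test of their own.

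**Figure D3:**
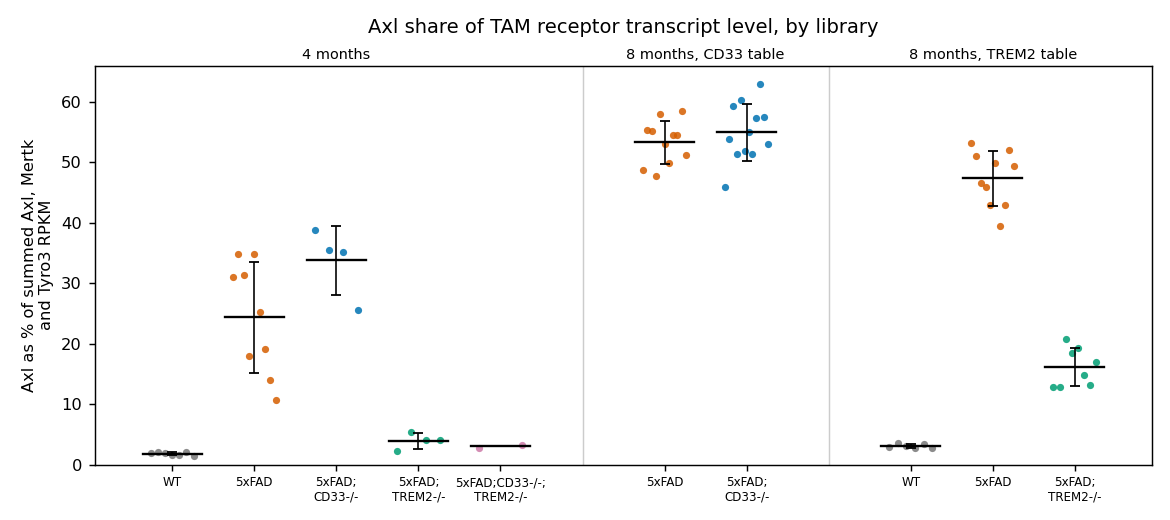
Axl as a percentage of the summed RPKM of Axl, Mertk and Tyro3 in each library (points), with group means (bars) and SD (whiskers, groups of over 2 libraries). WT libraries lie at 3.57% or lower, 5xFAD libraries between 10.7% and 58.5%, and the 5xFAD;TREM2-/- groups average 3.94% at 4 months and 16.1% at 8 months.

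In WT, Gas6 was nearer to Mertk in level than Pros1 was, and the differences of both ligands between groups were small beside those of Axl. Gas6 (ENSMUSG00000031451, chromosome 8, 13465374 to 13494490, minus strand, overlapping the opposite-strand gene Tmem255b) ranged over group means from 123.8 to 156.3 RPKM. At 4 months it was 129.3 ± 12.5 RPKM in WT (SD, n = 7) and 139.1 ± 11.7 RPKM in 5xFAD (SD, n = 9), with no called difference in any comparison at that age. The 5xFAD;TREM2-/- libraries at 4 months, at 146.9 to 168.8 RPKM, all exceeded the WT libraries, at 114.8 to 141.9 RPKM. The log2 difference of 0.28 ± 0.0859 was not called (limma, adjusted p = 0.306). At 8 months Gas6 lay between 109.1 and 139.6 RPKM in WT and between 128.7 and 160.2 in 5xFAD, a called difference of 0.21 ± 0.0675 with overlapping groups (limma, adjusted p = 0.01). With the endothelial covariate it was 0.11 ± 0.0930 and not called (adjusted p = 0.412). The difference between 5xFAD;TREM2-/- and WT, 0.19 ± 0.0706 (adjusted p = 0.029), was lost in 5 of the 14 fits that left out a library, those without 5xFAD;TREM2-/- replicate 1 or 3 or WT replicate 2, 6 or 8. TREM2 loss moved Gas6 from 5xFAD by -0.02 with an interval from -0.14 to 0.11 at 8 months. CD33 loss moved it by -0.02 (interval -0.19 to 0.15) at 4 months and -0.01 (interval -0.15 to 0.13; 0.01 without the library that held Cd33) at 8 months.

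Pros1 (ENSMUSG00000022912, chromosome 16, 62854307 to 62929346, plus strand), which encodes a plasma anticoagulant as well as a TAM ligand, had group means from 76.1 to 100.1 RPKM. At 4 months no comparison called it; 5xFAD and WT differed by -0.12 ± 0.0753 (limma, adjusted p = 0.311), and 5xFAD;CD33-/- and WT by -0.21 ± 0.0937 (adjusted p = 0.0672). The latter was called without 5xFAD;CD33-/- replicate 4 or without WT replicate 12 (adjusted p = 0.0488 and 0.045). At 8 months Pros1 was between 87.7 and 106.8 RPKM in WT, between 70.6 and 97.6 in 5xFAD and between 63.7 and 91.3 in 5xFAD;TREM2-/-. The groups overlapped, and the log2 differences from WT were -0.31 ± 0.0779 (limma, adjusted p = 0.0018) and -0.40 ± 0.0815 (adjusted p = 0.000373). With the endothelial covariate they were -0.02 ± 0.0781 and -0.04 ± 0.0903 and not called. Summed endothelial markers of 5xFAD;TREM2-/- did not overlap those of WT, so for that group the covariate and genotype cannot be told apart. The part of microglial content, whose markers moved by medians of -0.80 and -0.68, was not tested. No knockout gave a called change of Pros1 from 5xFAD. In the double knockout none of the members but Axl was called in any comparison, with or without replicate 1. In the CD33 table, where 3.30% of 11345 genes were called between 5xFAD;CD33-/- and 5xFAD, 0 of the 4 members tested were called, and 374 genes were called over the whole table. The unadjusted p was under 0.05 for Mertk alone among them, at 0.0433.

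**Figure D4:**
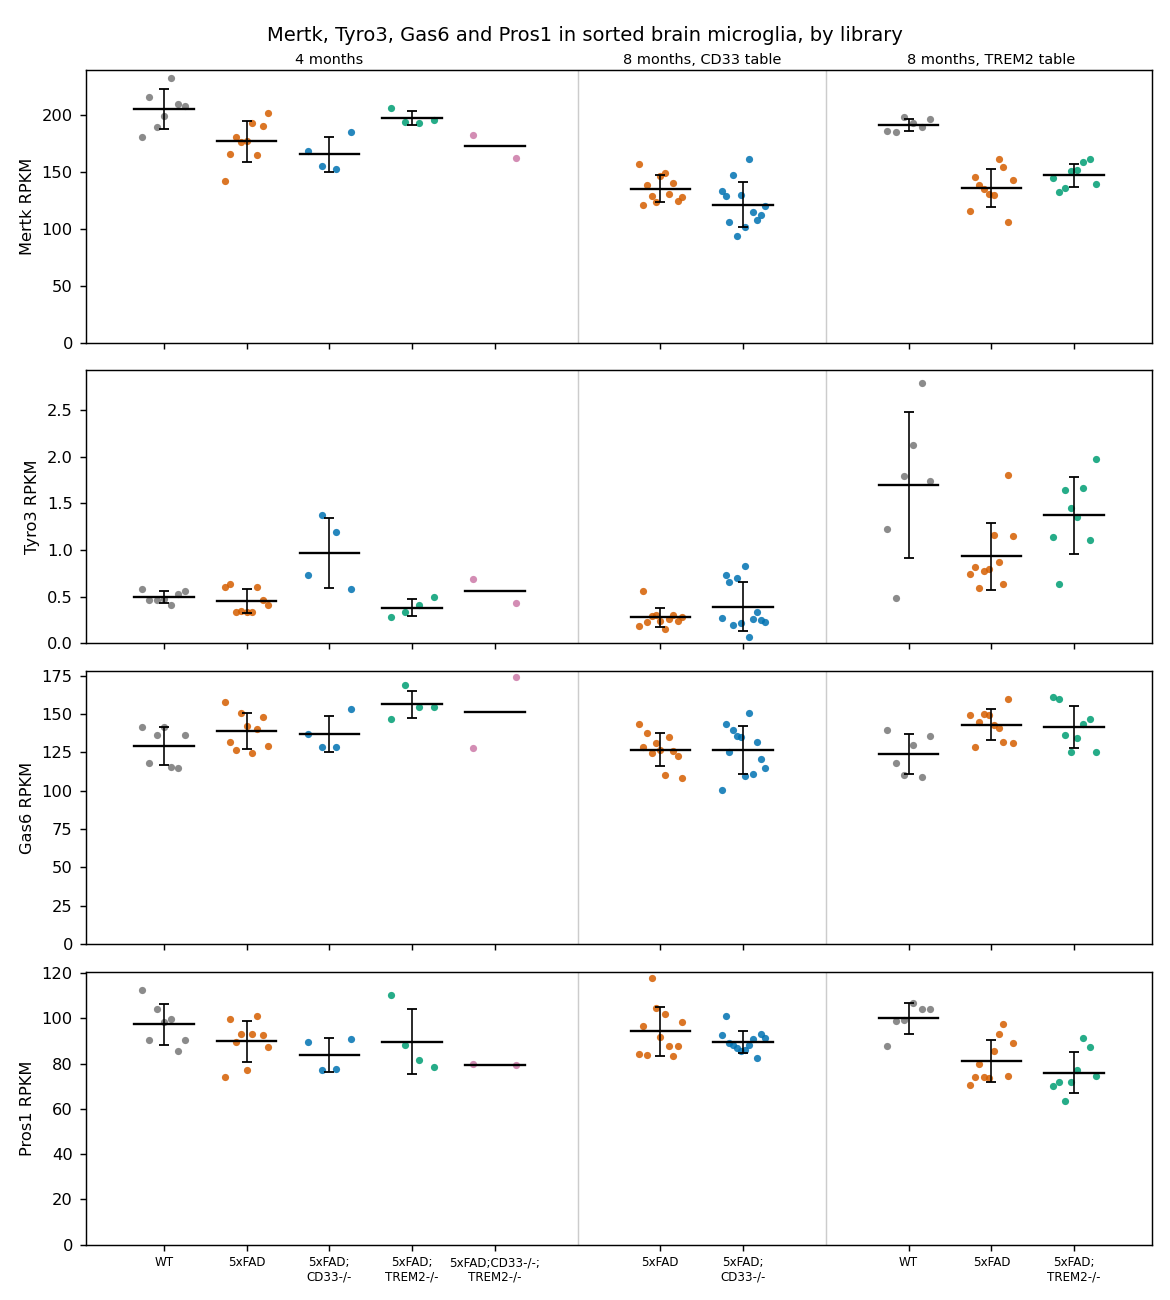
RPKM of Mertk, Tyro3, Gas6 and Pros1 in each library (points) by genotype and table, with group means (bars), SD (whiskers, groups of over 2 libraries) and axes that start at 0. Mertk at 8 months lies between 184.9 and 197.9 in WT and at 161.5 or lower in the other groups of that table, Tyro3 stays at 2.79 or lower, Gas6 lies between 100.8 and 174.4, and Pros1 between 63.7 and 117.9.

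The machinery around the receptors was described from lists of related genes. Of 6 tested genes for TAM ligand maturation, receptor shedding and accessory ligands, 2 were called higher and 0 lower in 5xFAD against WT at 4 months (median log2 difference -0.11, all genes -0.02). At 8 months 2 were called higher and 3 lower (median -0.18, all genes -0.02). Of all genes tested, 16.7% and 58.8% were called at these ages. Lgals3, which encodes galectin-3, described as a MERTK ligand, rose by 1.60 ± 0.134 and 2.55 ± 0.114 on the log2 scale (limma, adjusted p = 7.79e-09 and 6.71e-15). Vkorc1, the epoxide reductase that recycles vitamin K for ligand carboxylation, rose by 0.38 ± 0.0689 and 0.65 ± 0.0883. Adam10 and Adam17, which encode proteases that shed TAM receptors, fell at 8 months by 0.48 and 0.32 on the log2 scale. In 5xFAD;TREM2-/- against 5xFAD at 8 months Vkorc1 fell by 0.47 and Adam10 rose by 0.14, and Lgals3 was not called; it stayed above WT by 2.30 ± 0.12.

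Among 18 tested genes of TAM signalling and its feedback, 1 was called higher and 5 lower in 5xFAD at 4 months (median -0.06). At 8 months 6 were called higher and 8 lower (median -0.13, all genes -0.02). The shares of all genes called against WT were 16.7% and 58.8%. Elmo1, an adaptor of Rac activation during engulfment, fell by 0.35 and 1.10, and the kinase subunits Pik3r1 and Pik3cd fell at both ages. With TREM2 loss at 8 months, 3 were called higher and 2 lower than in 5xFAD (median 0.06 against 0.02 over all genes), where 17.3% of all genes were called, with Ifnar2 lower by a log2 difference of -0.30 and Elmo1 and Socs3 higher by 0.36 and 0.41. Elmo1 also fell by 0.35 with CD33 loss at 4 months (adjusted p = 0.0363), where Dock1, its partner, rose by 0.19, with 2 of 18 called against 4.90% of all genes. The oligodendrocyte and endothelial markers that moved in that comparison are given with Tyro3, and with the endothelial covariate the calls over all genes fell from 638 to 24. With CD33 loss at 8 months, 0 of the 17 tested were called, against 3.30% of all genes. Of 5 tested nuclear receptors that apoptotic cell uptake engages, 0 were called in 5xFAD at 4 months, against 16.7% of all genes (median -0.09). At 8 months, where 58.8% of all genes were called, Nr1h3, the liver X receptor alpha, was higher by 0.36 ± 0.115. Rxra and Rxrb were lower there by log2 differences of -0.16 and -0.38.

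Among 14 tested other phosphatidylserine receptors and bridging proteins, 4 were called higher and 3 lower in 5xFAD at 4 months (median -0.06), and 7 higher and 6 lower at 8 months (median 0.13, all genes -0.02). The phosphatidylserine receptors Cd300lb and Cd300lf rose by 1.58 ± 0.134 and 1.87 ± 0.23 at 8 months, and the scavenger receptor Stab1 and the integrin subunit Itgav fell by 1.34 and 0.79. TREM2 loss raised Stab1 from 5xFAD by 0.43 ± 0.0961 at 4 months, the 1 gene of this list called, and by 0.91 ± 0.0935 at 8 months. At 8 months 3 were called higher and 3 lower, where 17.3% of all genes were called, with Cd300lb lower by a log2 difference of -0.66, Lrp1 higher by 0.38 and Itgb3 lower by -0.32. CD33 loss gave 0 calls among the 14 at 4 months and 1 of 13 at 8 months, where 4.90% and 3.30% of all genes were called. The 1 gene was Scarf1, higher by 0.73 ± 0.189 (limma, adjusted p = 0.0316). Scarf1 is also known from endothelial cells, and 8 of 8 endothelial markers were called higher there, with a median of 0.97. The part of these markers in the Scarf1 result was not tested. The shares of all genes tested that were called in 5xFAD against WT were 16.7% at 4 months and 58.8% at 8 months.

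**Figure D5:**
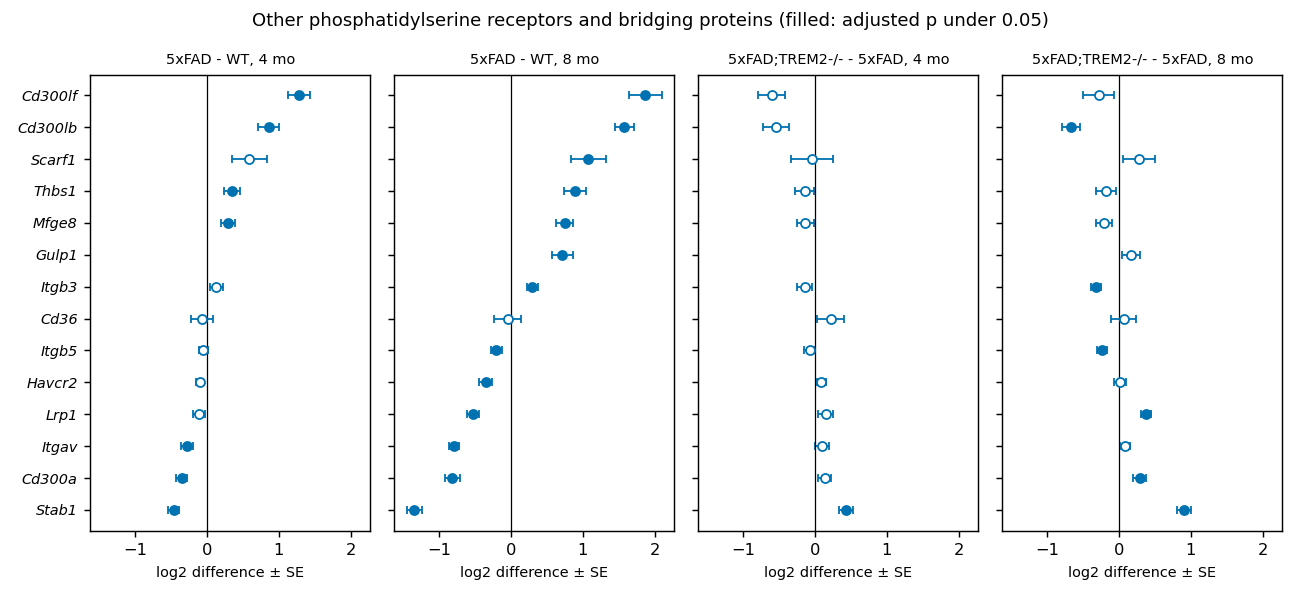
Log2 differences (points) with SE (whiskers) of the phosphatidylserine receptors and bridging proteins that were tested, in 5xFAD against WT and 5xFAD;TREM2-/- against 5xFAD at each age. Filled points had an adjusted p under 0.05; Stab1 lies at -0.46 and -1.34 in 5xFAD against WT and at 0.43 and 0.91 with TREM2 loss, and Cd300lb at 1.58 and -0.66 at 8 months.

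Genes whose pattern was most like that of Axl were ranked by the lowest of the 3 Pearson correlations of log2 values, over the 26, 23 and 24 libraries of the tables, among 11212 other genes tested in all tables. The first 6 were Tmem163 (lowest r = 0.807), Serpine2 (0.799), Ctsb (0.794), Cd5 (0.755), Eif4b (0.751) and Fabp3 (0.738). On deviations from group means, which remove the genotype differences, the first 6 were Lgals3bp (0.711), Ly9 (0.674), Hpse (0.674), Treml2 (0.655), Cd5 (0.643) and Adcy3 (0.615). Cd5 was the gene in both. For Mertk the first 6 over all libraries were Frmd4a (0.880), Git2 (0.858), Gltscr1l (0.853), Map3k9 (0.853), Apba1 (0.852) and Tanc2 (0.849). On deviations they were Frmd4a (0.824), Dennd1c (0.795), Gm996 (0.794), Adap2 (0.780), Camsap1 (0.772) and Ssh2 (0.766). The points of each correlation share libraries, and with them depth and cell content, so these values describe the libraries and carry no test.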

How the data were processed

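RPKM values per gene were deposited by the authors in 3 tables of 39179 genes. Per the submitters' processing notes, STAR, HTSeq and edgeR were used with mm10/GRCm38, while the sources used here do not give versions, the annotation release or the strand setting of the counting. Per the labels' protocols, libraries were made with a stranded mRNA kit. The RPKM values were whole multiples of 1 read within 0.05 reads in 100% of cases, which gave read numbers of 21190000 to 79650000 per library and so the counts behind each value. The precision of low genes such as Tyro3 is limited by this depth.

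The R package limma (3.58.1, under R 4.3.3) was applied to each table separately, to log2(RPKM + 0.5), with all groups in 1 fit, trended and robust moderated variances and two-sided tests. Fold changes on this scale understate changes of low genes. Genes were kept where at least 2, 11 and 6 libraries of the respective table, the size of its smallest group, reached 1 RPKM, which left 13024, 11345 and 12622 genes. Benjamini-Hochberg adjustment ran over all of them, and a call is an adjusted p under 0.05. Errors after log2 differences are SE, and those after mean RPKM or percentages are SD. The procedure was tested on simulated independent libraries with known changes. The simulation did not cover changes as small as those of Mertk, Gas6 and Pros1, or the comparisons of the double knockout.

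The 5 members were named throughout, Cd33 and Trem2 as the check of the targeted genes, up to 4 genes with the smallest adjusted p per pathway list and comparison, up to 2 markers per list, and the first 6 genes by pattern likeness. The members and lists were chosen with earlier results of these data known. A gene of the signalling list is counted but not reported here by name. Promoter sequences were RefSeq's on GRCm38.p6, and gene positions those of GENCODE M21 on GRCm38. Alternatives were other pseudocounts (0.1 and 1), filters, scaling, recovered reads (voom), covariates, a replicate block, only the compared groups in the fit, and leaving out each library.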

Additional observations from a re-analysis of the deposited data

Results flagged for a closer look

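In the TREM2 table, Tyro3 in 5xFAD replicate 9 was at 1.80 RPKM, while the other 9 5xFAD libraries lay between 0.588 and 1.16 RPKM. Its gap to the nearest library was 0.530 of the range of the group, which is why it stood apart. The smallest gap that the screen flags is met by chance in about 1 of 20 groups, and 35 sets of a gene and a group were screened.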

How the results depend on the processing

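Of 713 values of 74 results under alternatives with no library left out, 690 kept their call or lack of one, as did 925 of 937 with 1 library left out, and none reversed a call. Every Axl call held under each alternative, and the 4-month difference of Axl between 5xFAD;TREM2-/- and WT gained one with only those groups in the fit (0.96). The causes of the changes below were not tested. Summed endothelial markers of 5xFAD;CD33-/- at 4 months and of 5xFAD;TREM2-/- at 8 months did not overlap those of WT. In these comparisons with WT the covariate and genotype cannot be told apart. With endothelial markers as a covariate, calls were lost for Mertk in 5xFAD (-0.12), in 5xFAD;CD33-/- (-0.07) and in 5xFAD;TREM2-/- at 8 months (-0.04), each against WT. They were also lost for Tyro3 in 5xFAD;CD33-/- against 5xFAD (0.39), WT (0.14) and 5xFAD;TREM2-/- (0.50), and in 5xFAD against WT at 8 months (-0.63). At 8 months they were lost for Gas6 and Pros1 in 5xFAD (0.11 and -0.02) and in 5xFAD;TREM2-/- (0.07 and -0.04) against WT, while Mertk gained a call in 5xFAD;TREM2-/- against 5xFAD (0.19). With a replicate block, calls were lost for Mertk in 5xFAD (-0.24) and 5xFAD;CD33-/- (-0.23) against WT at 4 months, for Tyro3 in 5xFAD;CD33-/- against 5xFAD (0.51), WT (0.49) and 5xFAD;TREM2-/- (0.68), and for Gas6 in 5xFAD;TREM2-/- against WT at 8 months (0.17). The pairing check found same-numbered pairs correlated above 0.1 in 5 of 22, 4 of 11 and 10 of 19 cases in the 4-month, CD33 and TREM2 tables. Pairs sharing a title prefix were above 0.1 in 11 of 25, 13 of 18 and 16 of 26 cases, and other pairs in 50 of 212, 30 of 107 and 43 of 146. Median r of same-numbered pairs was 0.00645, -0.140 and 0.145, against -0.00652, -0.0717 and -0.0301 for other pairs. The check therefore does not settle whether the numbers pair libraries in the TREM2 table. Pairs sharing a title prefix had the highest median r in each table, at 0.0706, 0.344 and 0.190. The main fits hold no term for the prefix. Gas6 in 5xFAD;TREM2-/- against WT at 8 months was also not called with the title prefix (0.16) or only those groups (0.19). Mertk in 5xFAD;CD33-/- against 5xFAD;TREM2-/- gained a call with the title prefix (-0.37) and the stricter filter (-0.26). With 1 library left out, the ranges of the results whose call changed were -0.25 to -0.18 for Pros1 in 5xFAD;CD33-/- against WT, -0.31 to -0.22 for Mertk in 5xFAD;CD33-/- against 5xFAD;TREM2-/-, 0.59 to 0.74 for Tyro3 in 5xFAD;CD33-/- against 5xFAD, and -0.25 to -0.18 for Mertk in 5xFAD against WT at 4 months. At 8 months they were 0.16 to 0.23 for Gas6 in 5xFAD;TREM2-/- against WT and -0.77 to -0.42 for Tyro3 in 5xFAD against WT. The Tyro3 range at 4 months covers only the 11 fits in which the gene was tested. It lacks the fits that left out either 5xFAD;CD33-/- library with the highest Tyro3, at 1.38 and 1.19 RPKM. Tyro3 then failed the filter, so how far the difference rests on these libraries cannot be read from the range. Counts of called genes at 4 months ranged from 1306 to 2636 around 2181 for 5xFAD against WT, from 19 to 2346 around 638 for 5xFAD;CD33-/- and from 157 to 472 around 311 for 5xFAD;TREM2-/- against 5xFAD. They ranged from 75 to 590 around 488 for the double knockout against 5xFAD, from 700 to 5797 around 5524, from 26 to 70 around 52 and from 12 to 477 around 62 for 5xFAD;CD33-/-, 5xFAD;TREM2-/- and the double knockout against WT. Between knockouts they ranged from 571 to 3258 around 1999 (single knockouts), from 189 to 1225 around 639 and from 5 to 25 around 9 (double against 5xFAD;CD33-/- and 5xFAD;TREM2-/-), and from 0 to 8 around 0 for the difference of differences. At 8 months they ranged from 13 to 562 around 374 for CD33 loss, from 4100 to 8101 around 7428 for 5xFAD and from 1118 to 5489 around 5342 for 5xFAD;TREM2-/- against WT. The upper ends of 8101 and 5489 came with no filter on genes, over 25993 genes tested against 12622 in the main fit. Median-ratio scaling moved the higher calls with CD33 loss at 4 months from 247 of 638 to 204 of 405. The highest counts, 2346, 1225 and 25, for 5xFAD;CD33-/- against 5xFAD and for the double knockout against 5xFAD;CD33-/- and 5xFAD;TREM2-/-, came without 5xFAD;CD33-/- replicate 4 (the first pair) and double knockout replicate 1.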
